A study of Mus musculus with 12 samples.

Results

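A total of 1434 promoter peaks of mouse embryonic fibroblasts (MEFs) were lost by 72 h of reprogramming, out of 17593 promoter peaks and 166486 peaks of any kind in control MEFs. They were chosen by measured values: a control MEF peak with a -log10 q of 5 or more, a midpoint within 1000 bp of a start site of a protein-coding gene in GENCODE M21 (GRCm38), an overlap of at least 1 bp with a peak of the Zfp266 KO MEFs, and no overlap with a peak of either reprogramming group. The values that chose them (the q-value, and presence or absence in the 4 peak lists) are given as descriptions with no test. Open chromatin was profiled with Omni-ATAC-seq, in which a transposase inserts adaptors into accessible DNA, in 12 libraries of 50000 starting cells, 3 in each of 4 groups. Per the labels the cells were passage-2 fibroblasts of strain 129 from E12.5 embryos. By the study's methods they came from a line with Cas9, a reporter at Nanog (GFP and puromycin resistance) and, in the Sp3 locus, a doxycycline-inducible cassette of Oct4, Sox2, Klf4 and Myc (OSKM) linked to mOrange. Control cells received a non-targeting sgRNA and KO cells an sgRNA against Zfp266, so KO groups were edited pools and not clones. MEF groups stayed in MEF medium for the 96 hours after transduction, whereas reprogramming groups were given ESC medium that held doxycycline (300 ng/ml) and vitamin C (10 µg/ml) for the last 72 hours. By the study's methods the embryos were chimeras made by morula aggregation, so host cells without the transgenes, of another mouse background, can be present. Sorted MEFs were used for the MEF groups but mOrange+ cells for the reprogramming groups. Plating followed that of the RNA samples, in which reprogramming cultures held a small share of transgenic cells among wild-type MEFs and MEF cultures were not mixed. The medium, the co-culture, the sort gate and the reprogramming factors therefore changed together and cannot be told apart here. Peaks were called once per group on merged replicates, so no peak has a replicate error. Total reads per library are unknown, but the size factors of the deposited count tables give relative depth, from 0.990 to 1.46 in the MEF libraries and from 0.630 to 1.10 in the reprogramming libraries. Depth thus moved with the MEF to reprogramming comparison, and its part in the lost peaks was not tested.

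Promoters rich in CpG dinucleotides (CpG islands) belong mostly to genes used in every cell and are open in most cell types, whereas CpG-poor promoters belong more often to genes of particular tissues and open through the factors of that tissue. In fibroblasts the AP-1 factors, dimers of JUN and FOS proteins, bind TGACTCA or TGAGTCA at many open sites away from promoters. During reprogramming, OSKM act on a cell whose open sites are still those of the fibroblast, and fibroblast sites close while new sites open.

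The 1434 lost peaks were 8.18% of the 17538 promoter peaks present in both MEF lists. Loss was 52.2% among the 104813 MEF peaks away from start sites that were present in both MEF lists. Between the MEF lists, 55 of the 17593 control MEF promoter peaks had no KO MEF peak, or 0.313%. That share compares groups of like culture and depth, so it is no background for calls missed in the reprogramming libraries. In the opposite direction, 1789 promoter peaks of the reprogramming lists had no MEF peak, or 10.3% of those present in both reprogramming lists. A further 15743 promoter peaks were kept in both reprogramming groups, 161 were absent from reprogramming control and present in reprogramming KO, and 200 were absent from reprogramming KO and present in reprogramming control. Distal sites thus had a far larger share of loss than promoters, and very few control MEF promoter peaks were missing from the KO MEF list. In bulk cells, fewer open cells and less accessibility per cell cannot be told apart. The promoter of Zfp266 itself had a peak in all 4 groups (fold enrichment 5.46 and 5.08 in control and KO MEFs, 5.03 and 4.52 in control and KO reprogramming), which does not check the edit.

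The sequences of 6 lost promoters are shown because they place an AP-1 string next to a start site that had no reprogramming peak. They were taken from the 26 lost peaks in which an AP-1 string lay within 400 bp upstream of the start site, within 121 bp of exon-free sequence inside the peak, and in which no reprogramming peak reached within 1000 bp of any start site of the gene (receptor genes named Vmn or Olfr and predicted genes named Gm were not considered). The first 5 had the highest fold enrichment and Mmp10 was taken from the matrix remodelling list. Each sequence is 121 bases of the C57BL/6J reference (GRCm38.p6, RefSeq), read 5′ to 3′ on the gene's strand and centred on the string, which is in capitals. The cells were labelled as strain 129, whose sequence can differ.
Cntnap4: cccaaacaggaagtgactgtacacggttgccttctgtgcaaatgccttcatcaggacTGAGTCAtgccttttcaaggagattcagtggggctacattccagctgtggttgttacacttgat
Il13ra2: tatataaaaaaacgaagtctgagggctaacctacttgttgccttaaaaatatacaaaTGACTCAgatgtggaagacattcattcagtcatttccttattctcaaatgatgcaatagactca
Rtl9: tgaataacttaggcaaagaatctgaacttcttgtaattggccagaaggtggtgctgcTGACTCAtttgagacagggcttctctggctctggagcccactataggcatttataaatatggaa
Akr1c20: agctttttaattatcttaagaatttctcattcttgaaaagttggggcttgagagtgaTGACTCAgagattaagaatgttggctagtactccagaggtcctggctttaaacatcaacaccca
Sele: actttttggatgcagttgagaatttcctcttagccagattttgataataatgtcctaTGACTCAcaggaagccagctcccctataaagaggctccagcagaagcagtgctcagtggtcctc
Mmp10: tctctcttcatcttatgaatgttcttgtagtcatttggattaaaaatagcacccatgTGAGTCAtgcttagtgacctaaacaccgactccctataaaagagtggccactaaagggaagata
The windows were Cntnap4 at chr8:112731186-112731306 (plus strand), Il13ra2 at chrX:147429322-147429442 (minus strand), Rtl9 at chrX:143099177-143099297 (plus strand), Akr1c20 at chr13:4523632-4523752 (minus strand), Sele at chr1:164048104-164048224 (plus strand) and Mmp10 at chr9:7502222-7502342 (plus strand). Sele encodes E-selectin, an adhesion molecule of activated endothelium, and Mmp10 encodes stromelysin-2, a protease that cuts extracellular matrix. In both genes the centre of the string lay at -70 bp relative to the start site. Il13ra2 encodes a decoy receptor for interleukin-13, and its string lay at -190 bp. Cntnap4, a neurexin family gene, had it at -153 bp, and the aldo-keto reductase gene Akr1c20 and the retrotransposon-derived gene Rtl9 had it at -347 and -357 bp. In control MEFs the fold enrichment of these peaks was 6.75 at Il13ra2, 5.67 at Sele and 4.36 at Mmp10, and in KO MEFs it was 5.92, 5.83 and 4.05. A peak in both MEF groups and none in either reprogramming group was required of each.

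Lost promoters were CpG-poor. The observed over expected CpG ratio, which is near 1 where CpG is not depleted, had a median of 0.214 over the lost peaks (quartiles 0.147 and 0.301) and of 0.632 over the kept promoter peaks (quartiles 0.456 and 0.748). The contrast held in the central 400 bp, where the medians were 0.210 for lost promoters, 0.720 for kept promoters, 0.178 for lost distal peaks and 0.223 for kept distal peaks. The GC content of whole peaks had a median of 46.7% in lost and 56.8% in kept promoters. The share of promoter peaks that were lost was 34.7% (95% Wilson interval 32.6 to 36.8%) where the central CpG ratio was below 0.2, 20.2% (18.8 to 21.8%) from 0.2 to 0.4, 5.9% (5.07 to 6.86%) from 0.4 to 0.6, and 0.267% (0.164 to 0.433%) at 0.8 or more. These intervals cover counting error over peaks only, and differences between classes of peaks were not tested. Lost and kept promoters also differed in CpG content within peaks of one width. Among peaks of 1000 to 1500 bp the median central CpG ratio was 0.205 in 249 lost and 0.764 in 5298 kept peaks, and among peaks under 500 bp it was 0.199 in 409 lost and 0.251 in 453 kept peaks.

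**Figure D1:**
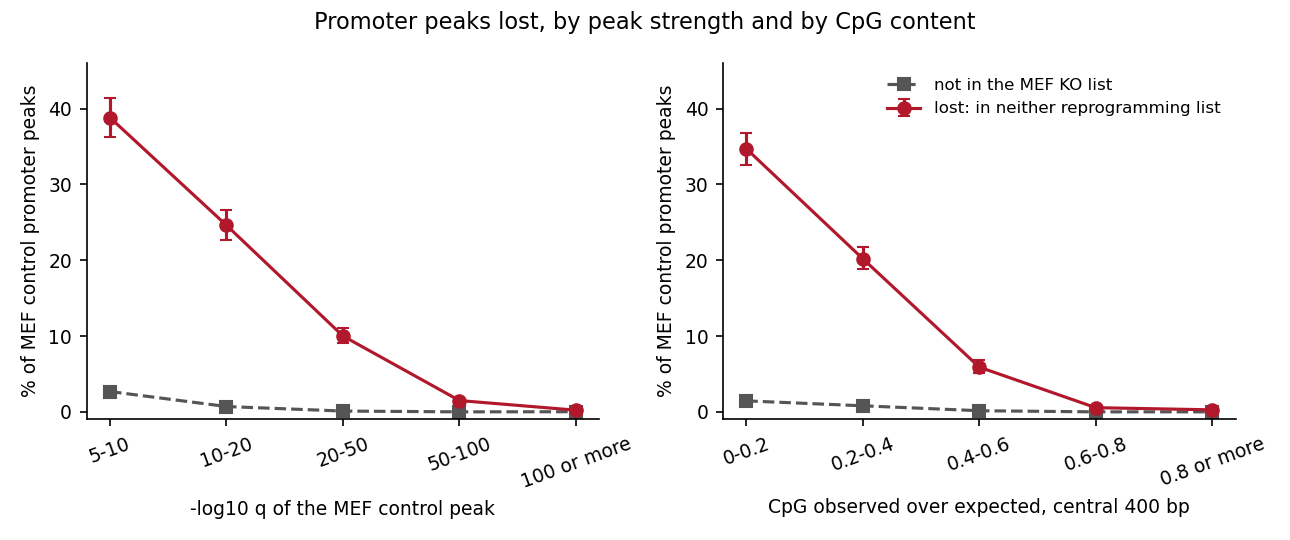
Share of control MEF promoter peaks that were lost (circles, % of peaks present in both MEF lists, bars 95% Wilson intervals) and share that had no KO MEF peak (squares, % of all control MEF promoter peaks), by the -log10 q of the peak (left) and by CpG ratio (right). Loss falls from 38.8% to 0.221% along the q classes and from 34.7% to 0.267% along the CpG classes, while the share with no KO MEF peak is at most 2.68%.

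AP-1 strings were more frequent in lost than in kept promoters. In the central 400 bp, 394 of 1434 lost promoters held TGACTCA or TGAGTCA (27.5%, 25.2 to 29.8%), beside 912 of 15743 kept promoters (5.79%, 5.44 to 6.17%), 30.9% of lost distal peaks and 24.2% of kept distal peaks. Of all 21938 windows of 400 bp around the start of a gene record, 5.18% held one. The higher share was seen in each of the 4 classes of peak strength compared: 24.3% of lost and 11% of kept promoters held the string at a -log10 q of 5 to 10, and 37.3% and 4.43% at 50 or more. It was also seen within classes of CpG ratio, with 30.7% of lost and 18.9% of kept promoters below 0.2. Read the other way, loss was 45.5% (41 to 50%) for CpG-poor promoters (ratio below 0.2) with the string and 31.4% (29.1 to 33.8%) for those without it. Around the start site itself, rather than the peak centre, the string was in 13.3% of lost and 4.96% of kept promoters, and over whole peaks in 39.3% and 23%.

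Other strings differed in both directions, searched on both strands of the central 400 bp. The TEAD string GGAATG was in 29.8% of lost and 14.5% of kept promoters, and the RUNX string TGTGGT in 32.9% and 15.9%. Around all gene starts these were in 16.4% and 19.2% of windows. The ETS string CCGGAAG was in 1.46% of lost and 12.6% of kept promoters, against 13% of all gene starts. The KLF strings (GGGCGGGG, GGGCGTGG, GGGTGGGG and GGGTGTGG) were in 14.2% of lost and 40.8% of kept promoters, against 38.8% of all gene starts. Both of these are rich in C and G, and TEAD and RUNX strings are poorer in them, so the base composition given above moved with these shares and its part in them was not tested. The NF-Y string CCAAT was in 39.5% of lost and 32.9% of kept promoters (42.9% of all gene starts). The SOX strings (CCATTGTC, CCATTGTT, CCTTTGTC and CCTTTGTT) were in 6.97% and 4.7% (5.28%), and the OCT string ATTTGCAT in 2.44% and 1.06% (1.62%). The SRF pattern was in 1.81% and 1.26% (1.61%), and the CTCF pattern in 0.837% and 1.39% (0.634%). The values for all gene starts are from 400 bp around the start, a different window from the peak centre. In that window the CTCF pattern was in 0.279% of lost and 1.02% of kept promoters, and the ETS string in 2.93% and 15.4%. A TATAAA string 20 to 40 bp upstream of the start site was in 26 lost promoters (1.81%) and in 0.851% of kept promoters. Over whole peaks, which had a median width of 691 bp for lost and 1485 bp for kept promoters, the direction turned for 6 of these strings. There the shares in lost and kept promoters were 47.4% and 50.9% for TEAD, 51.9% and 54.5% for RUNX, 59% and 78.8% for NF-Y, 13% and 18.6% for SOX, 4.53% and 5.13% for OCT, and 4.11% and 6.24% for SRF.

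Lost promoter peaks were weaker and narrower than kept ones in MEFs. A narrow peak more easily meets the rule that no base overlaps a reprogramming peak, and the part of the rule in the width difference was not tested. Loss was 43.4% of promoter peaks under 500 bp wide and 0.95% of those of 2000 bp or more. Their fold enrichment over background had a median of 3.15 (range 1.54 to 9.83) against 4.75 in kept promoters, and their median width was 691 bp against 1485 bp. The median -log10 q was 13.3 and 76.6. The highest -log10 q of a lost peak was 178, at Dock4, a guanine nucleotide exchange factor of cell migration. Loss was 38.8% of promoter peaks with a -log10 q of 5 to 10, 24.6% from 10 to 20, 10% from 20 to 50, 1.49% from 50 to 100 and 0.221% at 100 or more. The share of control MEF promoter peaks with no KO MEF peak in the same classes was 2.68%, 0.703%, 0.106%, 0% and 0.017%. Just inside the q minimum were peaks at Lcn5 (5.00), Kdm1b (5.00) and Adam2 (5.01), and just outside it were peaks at Phldb2 (4.99), Bcl11a (4.98) and Sbf2 (4.97).

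In KO MEFs the same promoters had a similar fold enrichment, although a KO MEF peak was required of every lost and kept promoter peak. The KO over control ratio of fold enrichment had a median of 0.969 over the lost peaks (quartiles 0.903 and 1.03) and of 0.987 over the kept promoter peaks (quartiles 0.95 and 1.02). The nearest reprogramming peak lay at a median of 2756 bp from a lost peak (quartiles 1415 and 6457 bp), and it lay within 500 bp of 70 lost peaks (4.88%).

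**Figure D2:**
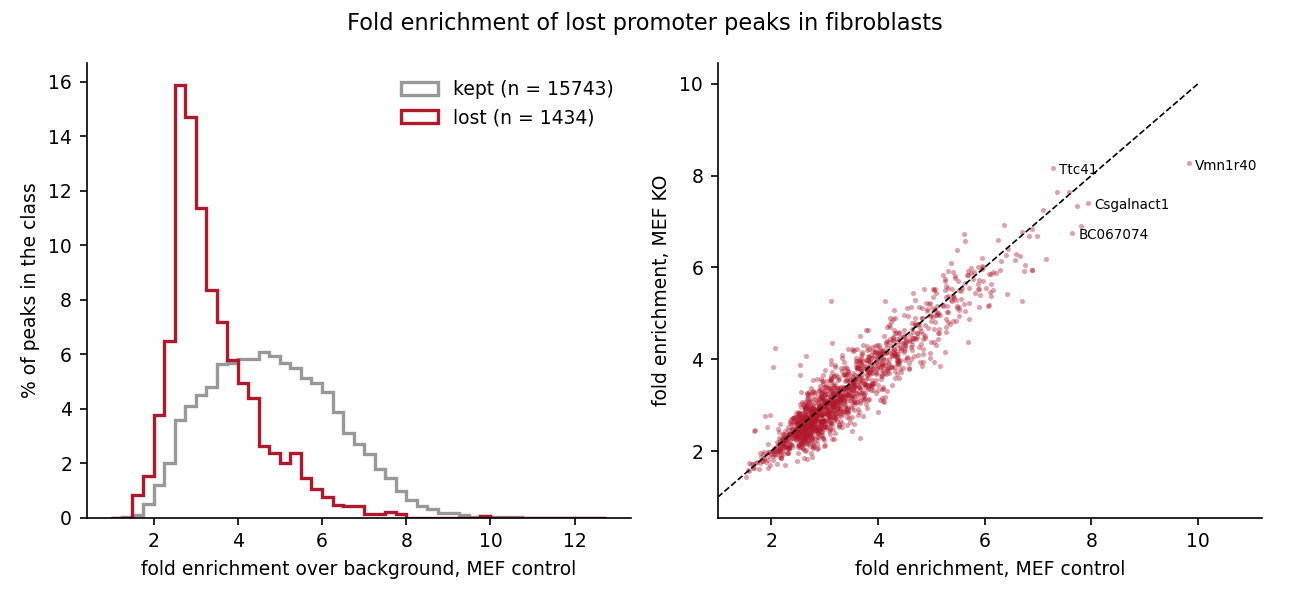
Left: distribution of the MEF control fold enrichment (x axis, ratio over background) of lost and kept promoter peaks, as % of each class. Right: fold enrichment of each of the 1434 lost peaks in control (x axis) and KO (y axis) MEFs, with the dashed line marking equal values. Lost peaks have a median of 3.15 against 4.75 for kept peaks, and Vmn1r40 is the highest at 9.83.

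Lost peaks lay more often away from the outermost annotated start of a gene than near it. The midpoint of 397 lost peaks (27.7%, 25.4 to 30.1%) was within 1000 bp of the start of the gene record, its outermost start, beside 75.8% of kept promoter peaks. Of the lost peaks, 795 (55.4%) were near a start of a transcript annotated as protein coding, beside 91% of kept peaks. The rest were near starts of other transcripts of a coding gene, such as retained introns. The midpoint was in an intron of the nearest gene for 875 lost peaks (61%), outside that gene for 206 (14.4%), in a UTR for 149 (10.4%), in a non-coding exon for 119 (8.3%) and in a coding exon for 85 (5.93%). The peak covered its nearest start site in 56.8% of lost and 94% of kept peaks, and its midpoint was upstream of that site in 54.6% and 38%. By chromosome, loss ran from 5.61% of promoter peaks on chromosome 8 to 11% on chromosome 1, among the autosomes and X. On chromosome Y none of 6 promoter peaks was lost, which allows a share of up to 39.0% (Wilson).

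**Figure D3:**
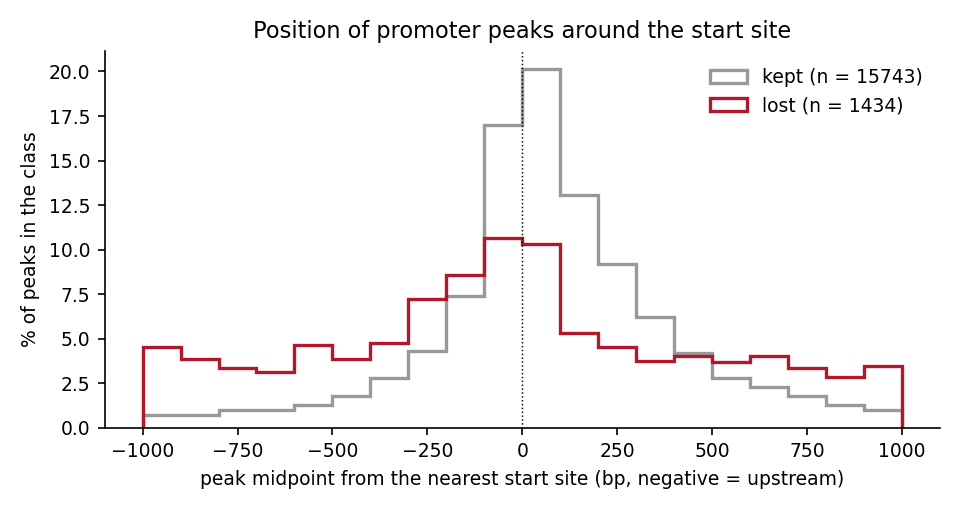
Distance of the peak midpoint from the nearest start site (x axis, bp, negative is upstream) for lost and kept promoter peaks, as % of each class in steps of 100 bp. Kept peaks gather at the start site and lost peaks are spread over the whole window, with 56.8% of lost and 94% of kept peaks covering the start site.

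The lost peaks belonged to 1351 genes, of which 1262 had 1 lost peak, 82 had 2 and 7 had 3. Among the genes with 3 were Mylk, the myosin light chain kinase gene of contractile cells, and Nedd4l, a ubiquitin ligase gene. Of these genes 967 (71.6%) had another promoter peak in a reprogramming list and 384 (28.4%) had none. With the start sites of protein_coding transcripts alone, 379 of 778 genes (48.7%) had none, so this share depended on which start sites were counted. When a reprogramming peak was counted wherever it reached within 1000 bp of a start site, 339 genes (25.1%) had none. Genes with another promoter peak had a median of 7 annotated start sites and those with none a median of 2, so the number of starts differed between these classes. Among the 15158 genes with a promoter peak in both MEF lists, 533 had no reprogramming promoter peak. Distal sites near genes with a lost promoter peak had a larger share of loss than those near genes with kept promoter peaks only. Of the distal MEF peaks in or within 10000 bp of the gene, 55.3% were lost for the 384 genes with no promoter peak left, 50.9% for the 967 with another one, and 43.7% for genes with kept promoter peaks only. The median share per gene was 50%, 46.7% and 33.3%. Over all distal MEF peaks, near these genes or not, the share was 52.2%. These differences were not tested.

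The 25 lost peaks with the highest fold enrichment had values from 6.41 to 9.83 in control MEFs. The highest (chr6:89706596-89707130) lay upstream of Vmn1r40, a pheromone receptor gene, at 9.83 in control and 8.27 in KO MEFs. The next were at internal starts of Csgalnact1 (chr8:68529548-68530123, 7.94 in control and 7.41 in KO), which makes chondroitin sulphate, of Dock4 (chr12:40788397-40789264, 7.80 and 6.91) and of Hacl1 (chr14:31613425-31614250, 7.73 and 7.33), an enzyme of peroxisomal fatty acid oxidation. These 3 genes had another promoter peak in reprogramming, as did BC067074 (7.65), Zfp365 (7.59), Ttc41 (7.28), Atp8b2 (7.15), Slc17a8 (7.10), Pm20d1 (6.99), Art3 (6.88), Myh10 (6.76), Dmd (6.69) and Pde4d (6.59). Myh10 encodes non-muscle myosin IIB, Dmd encodes dystrophin, and Slc17a8 encodes a vesicular glutamate transporter. No promoter peak remained by midpoint at Vmn1r40, Adh4 (7.37), an alcohol dehydrogenase, Cntnap4 (6.89), Prl6a1 (6.89), Rhox2c (6.83), Il13ra2 (6.75), Hsd11b1 (6.70), Ddi1 (6.67), Olr1 (6.57), Pla2g4e (6.44), Olfr957 (6.42) and Enpp6 (6.41). At Vmn1r40 and Pla2g4e a reprogramming peak still reached within 1000 bp of a start site. RNA was not measured in these libraries, so the values speak of accessibility alone.

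The 13 lost peaks with a -log10 q of 100 or more were at Dock4 (178), Hacl1 (163), P4ha3 (131), Kctd10 (123), Olfr957 (115), Myh10 (113), Susd1 (110.4), Ttc41 (108), Actn4 (105), BC067074 (105), Enpp6 (104), Aknad1 (101) and Rere (101). All but the Olfr957 peak were away from the start of the gene record. P4ha3 (chr7:100302118-100302908) adds hydroxyl groups to collagen chains, and Actn4 (chr7:28919345-28920413) is an actin crosslinker of non-muscle cells. Their fold enrichment was 6.31 and 4.28 in control MEFs and 6.15 and 4.39 in KO MEFs. Enpp6 had the highest central CpG ratio of the 13, 0.651. The nearest reprogramming peak was 556 bp away at Kctd10 and 17039 bp away at Enpp6, the smallest and the largest distance among them.

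The strongest lost promoters at which no reprogramming peak reached any start site of the gene were of mixed function, and the genes below are examples picked after their values were seen. Adh4 (chr3:138414315-138415185) had a fold enrichment of 7.37 in control and 7.63 in KO MEFs. Hsd11b1, the enzyme that regenerates active glucocorticoid, had 6.70 and 5.26 at chr1:193243386-193244045, in an intron close to an internal start. Olr1, the receptor for oxidised low-density lipoprotein, had 6.57 and 6.16 at the start of the gene. Other metabolic genes were the aldo-keto reductase gene Akr1c20 (5.97), the desaturase gene Scd4 (5.41), the glyoxylate enzyme gene Agxt (5.16) and Dio2 (5.13), which activates thyroid hormone. Tlr12 (6.08), Ifit3 (5.46), Ifi27 (5.36) and Tnfsf18 (5.07) are immune genes, and Siglecg (5.87) encodes a sialic acid receptor of B cells. The placental hormone gene Prl6a1 (6.89), the reproductive homeobox genes Rhox2c (6.83) and Rhox2f (5.88), the photoreceptor genes Cnga1 (5.43) and Pde6a (5.10), the epidermal caspase gene Casp14 (5.48) and the muscle caveola gene Cavin4 (5.21) are named for or known from other tissues. Further peaks as strong, such as those at Ddi1 (6.67), Enpp6 (6.41), Klhdc7a (5.95) and Olfml1 (5.74), were in none of these groups, and no group was tested for enrichment.

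Genes of the extracellular matrix had a higher share of lost promoter peaks than all genes, a difference that was described and not tested. Of the 15142 gene names with a promoter peak in both MEF lists, 1351 (8.92%, 8.48 to 9.39%) had a lost peak, and 384 (2.54%) had a lost peak and no promoter peak left in reprogramming. In the list of collagens and structural matrix these were 17 of 83 genes (20.5%, 13.2 to 30.4%) and 7. The small proteoglycans Lum (fold enrichment 3.89) and Aspn (3.29) lost the peak at the start of the gene and had no promoter peak left. Col4a6 (2.52), a basement membrane collagen, was of the same kind. Emilin1 (2.54, with a -log10 q of 52.3), an elastic fibre protein, lost its peak at the gene start too, but a reprogramming peak still reached within 1000 bp of a start site. At Col18a1 (4.83), Efemp1 (4.75), Col13a1 (4.70), Tnc (2.79) and Col1a2 (2.68 and 2.49 in a pair of peaks) the lost peaks were at internal starts and another promoter peak was present. Col1a2 encodes a chain of type I collagen, and the strongest peak reaching its start sites had a fold enrichment of 3.03 (control) and 2.85 (KO) in MEFs, and of 3.31 and 3.42 after 72 h of reprogramming. In the matrix remodelling list 17 of 77 genes (22.1%, 14.3 to 32.5%) had a lost peak. Among them were 3 neighbouring metalloprotease genes, Mmp10 (4.36), Mmp3 (4.01) and Mmp13 (3.53), each with no promoter peak left. P4ha3 (6.31), a prolyl hydroxylase of collagen, and Fap (6.12), a protease of activated fibroblasts, lost a peak at an internal start.

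Cytokine and immune genes had shares near those of the matrix lists. The cytokine and chemokine list had 19 of 94 genes with a lost peak (20.2%, 13.3 to 29.4%), and 12 of them had no promoter peak left. The strongest 8 were Il13ra2 (6.75), Il20rb (5.27), Tnfsf18 (5.07), Il1rl1 (4.54), Tnfsf4 (4.31), Ccl28 (4.15), Il2rb (4.14) and Il1r1 (3.54). Il1rl1 encodes the receptor for interleukin-33, and both it and Il33 itself (3.42) had no promoter peak left by midpoint, although a reprogramming peak still reached the window of Il33. The interferon and innate immunity list had 25 of the 123 genes (20.3%, 14.2 to 28.3%), with 14 left without a promoter peak. Its highest were the Toll-like receptor gene Tlr12 (6.08), the interferon-induced genes Ifit3 (5.46) and Ifi27 (5.36), and Casp4 (5.28), an inflammatory caspase. The 4 neighbouring Trim genes Trim5, Trim30b, Trim30c and Trim30a had weak peaks between 2.52 and 2.81.

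Genes with a lost peak and no promoter peak left were 3.57% (TGF-beta and BMP), 2.47% (growth factors), 1.19% (fibroblast factors) and 4.17% (AP-1 and other leucine zippers) of the signalling and transcription factor lists, or 1 or 2 genes a list, beside 2.54% of all genes counted the same way. In the TGF-beta and BMP list 9 of 56 genes (16.1%, 8.69 to 27.8%) had a lost peak, and the strongest 8 were Bmp5 (4.48), Ltbp2 (3.6), Smad1 (3.38), Smad3 (2.70), Hipk2 (2.65), Bmpr2 (2.59), Acvrl1 (2.57) and Gdf5 (2.4). The ligand genes Bmp5 and Gdf5 had no promoter peak left by midpoint, although one still reached the window of Gdf5, while the receptors Bmpr2 and Acvrl1 and the signal transducers Smad1 and Smad3 kept another one. In the list of growth factor receptors and ligands 10 of 81 genes (12.3%, 6.85 to 21.3%) had a lost peak, led by Egfr (5.10), Mertk (4.85), Igfbp4 (4.09), Igf1r (3.15), Csf1r (3.13), Angptl4 (3.11), Met (2.81) and Angpt4 (2.23). Of these 8, Angpt4 alone had no promoter peak left. The mesenchymal and fibroblast transcription factors had 8 of 84 genes (9.52%, 4.91 to 17.7%), namely Glis3 (3.55), Glis2 (2.81), Ebf3 (2.77), Mecom (2.52), Meox1 (2.43), Nfib (2.39), Zeb2 (2.37) and Nr2f2 (1.94). Meox1, a homeobox gene of the mesoderm, was the 1 of them with no promoter peak left. Of the AP-1 and other leucine zipper factors, 2 of 24 genes had a lost peak (8.33%, 2.32 to 25.8%): Batf (4.57), with no promoter peak left, and Bach2 (2.26), with another.

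Markers of other cell types were also among the lost promoters. Skeletal muscle markers had 6 of 16 genes (37.5%, 18.5 to 61.4%), among them Myl1 (3.89), Myh1 (2.93) and Cav3 (2.66) with no promoter peak left. Fat and cartilage markers had 6 of 17 (35.3%, 17.3 to 58.7%), among them Col9a1 (3.31), Fabp4 (3.23) and Col10a1 (2.79) with none left and Pparg (3.31), the master factor of fat cells, with another. Blood cell markers had 3 of 7 (42.9%, 15.8 to 75%), among them Lyz2 with no promoter peak left and Csf1r with another. Endothelial markers had 3 of 15 (20%, 7.05 to 45.2%), namely Pecam1 and Cdh5 with none left by midpoint and Vwf with another. The peak counted for Pecam1 (5.58) was nearest to a start of Milr1, and a reprogramming peak still reached a start site there. Over whole marker lists, a promoter peak was present in control MEFs for 7 of 22 blood, 15 of 20 endothelial, 38 of 76 epithelial, 20 of 31 muscle and 18 of 26 fat and cartilage markers, and in a reprogramming list for 10, 14, 42, 17 and 12. Ptprc, the pan-leukocyte marker, had no MEF peak within 1000 bp of a start site and had one in reprogramming (4.14 in control and 4.34 in KO). The fibroblast lists had a control MEF promoter peak at 88 of 94 matrix genes and 84 of 85 transcription factors, and a reprogramming promoter peak at 83 and 81. Neural and glial markers had one at 23 of 27 in both. The epithelial genes Cdh1 (4.65) and Epcam (3.94) had one too. How far a few cells of other types in the MEF groups contributed to lost peaks was not tested.

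Other lists ran from 0 to over 50%. Odour, pheromone and taste receptors had 16 of 30 genes (53.3%, 36.1 to 69.8%) with a lost peak, all 16 with no promoter peak left by midpoint. For 14 of them no reprogramming peak reached any start site, and the list holds 1513 annotated genes. Counted in the other direction, over annotated genes, 52 of the 1513 in this list had a promoter peak gained in reprogramming, beside 1697 of all 21924. Gains were at 36 of 245 ion channel, 34 of 356 solute carrier and 24 of 424 zinc finger protein genes. They were also at 14 of 101 matrix remodelling, 14 of 160 cytokine and chemokine and 8 of 187 interferon and innate immunity genes. The germline list had 4 of 7 genes (57.1%, 25 to 84.2%), Stag3, Spo11, Piwil4 and Tex15, which each had another promoter peak. Their lost peaks were centred at -966, 933, -934 and 834 bp relative to the nearest start. Contractile cytoskeleton genes had 8 of 52 (15.4%, 8.01 to 27.5%), ion channels 26 of 187 (13.9%), solute carriers 36 of 270 (13.3%), G protein-coupled receptors 18 of 156 (11.5%) and integrins and adhesion genes 7 of 61 (11.5%). Neural and glial markers had 3 of 22 (13.6%), axon guidance genes 7 of 74 (9.46%) and protocadherins 3 of 37 (8.11%). WNT and hedgehog genes had 3 of 63 (4.76%), homeobox genes 4 of 107 (3.74%), forkhead, T-box, GATA and SOX factors 2 of 64 (3.12%) and epithelial markers 1 of 35 (2.86%). Zinc finger protein genes had 8 of 375 (2.13%, 1.08 to 4.15%) with 0 left without a promoter peak, and ribosomal proteins and housekeeping genes 4 of 201 (1.99%, 0.777 to 5.00%). Of 22 pluripotency genes and 30 p53 and senescence genes none had a lost promoter peak, which allows shares of up to 14.9% and 11.4% (Wilson).

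**Figure D4:**
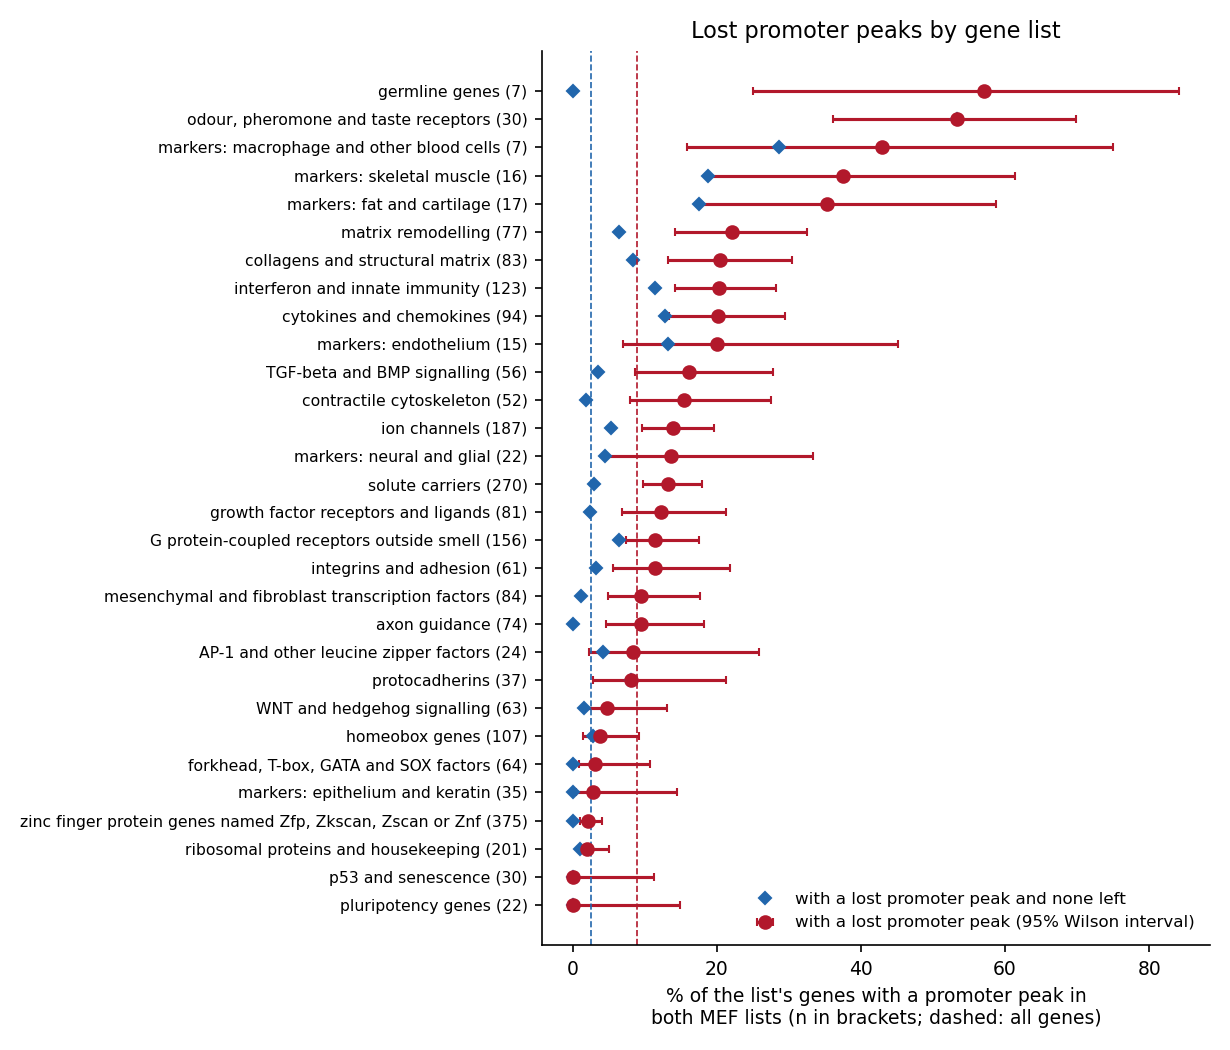
Share of genes with a lost promoter peak (circles, bars 95% Wilson intervals) and with a lost peak and no promoter peak left in reprogramming (diamonds), for each of the 30 gene lists, as % of the list's genes with a promoter peak in both MEF lists (number in brackets). The dashed lines are all genes, 8.92% and 2.54%, and matrix, cytokine and interferon lists lie near 20.2 to 22.1%.

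Some lost promoters were neighbours, although the same count was not made for kept promoter peaks and nothing particular to the lost ones is read from it. Runs in which each lost peak lay within 100000 bp of the next and which held at least 3 genes numbered 16, with 56 lost peaks (3.91%). In 5 runs no promoter peak between the ends was kept. On chromosome 12 (104114902 to 104236962) 4 serine protease inhibitor genes, Serpina3a, Serpina3c, Serpina3f and Serpina3g, had folds from 2.94 to 3.89 and no kept promoter peak between them. The mast cell and granzyme protease genes Mcpt9, Mcpt8 and Gzme on chromosome 14 and Olfr957, Olfr958 and Olfr959 on chromosome 9 were runs of the same kind.

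A few lost promoters were CpG-rich. The central CpG ratio was 0.8 or more in 16 lost peaks. Among them were the neural genes Adcyap1r1 (fold enrichment 5.14), Csmd2 (3.29), Csmd1 (3.23), the dopamine receptor gene Drd5 (2.86), Camk2b (2.57) and the calcium channel gene Cacna1i (2.48). Among the weakest was Cnn2 (1.59), a calponin gene. These genes were picked after their values were seen.

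Of the 480 intervals that the deposited tables list as differing between KO and control MEFs, 3 overlapped a lost promoter peak (0.625%), and of the 1608 listed in reprogramming none did. Counted per peak, 3 of 1434 lost promoter peaks (0.209%, 0.0712 to 0.613%) lay in a listed MEF interval, beside 9 of 15743 kept ones (0.0572%, 0.0301 to 0.109%), 12 of the 17593 control MEF promoter peaks (0.0682%) and 231 of all 124580 control MEF peaks (0.185%). For the intervals listed in reprogramming the shares were 0%, with an upper limit of 0.267%, for lost and 0.248% for kept promoter peaks. Of all control MEF peaks 0.334% lay in one. The rule barred lost peaks from any overlap with a reprogramming peak, while kept peaks had one in both groups. The 0% was thus largely set by the rule, and nothing is read from it. At 3 peaks no difference between lost promoters and all MEF peaks is read from the shares for listed MEF intervals. The values are read counts divided by a library size factor. At Suclg2 (chr6:95692002-95693041), a subunit gene of succinyl-CoA ligase, control MEFs had 56.1, 32.1 and 30.6 and KO MEFs had 99.98, 96.7 and 78.8. At Fam117b (chr1:59970143-59971218) control MEFs had 54.6, 40.3 and 58.3 and KO MEFs had 112, 84.3 and 104. At Gipc2 (chr3:152105458-152109376) control MEFs had 574, 565 and 517 and KO MEFs had 718, 673 and 704. The KO libraries were above all control libraries at each of the 3 intervals, as KO was higher at 479 of all 480 listed MEF intervals, with means of 91.8 ± 11.4 against 39.6 ± 14.3 at Suclg2, 100.2 ± 14.4 against 51.1 ± 9.51 at Fam117b, and 698 ± 22.8 against 552 ± 30.7 at Gipc2 (SD, n = 3). The direction is therefore that of the whole list. The intervals had been listed on these same libraries, so no test was repeated, and the labels do not say whether the 3 libraries were separate cultures. The mean over the 6 reprogramming libraries was 28.7 at Suclg2, 35.7 at Fam117b and 365 at Gipc2, or 72.4%, 69.8% and 66.0% of the control MEF mean and 31.2%, 35.6% and 52.2% of the KO MEF mean. The Gipc2 interval also holds a peak of both reprogramming lists outside the lost peak, whereas the Suclg2 and Fam117b intervals hold none. A promoter counted as lost could therefore still carry reads, and the other lost peaks have no per-library value here.

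**Figure D5:**
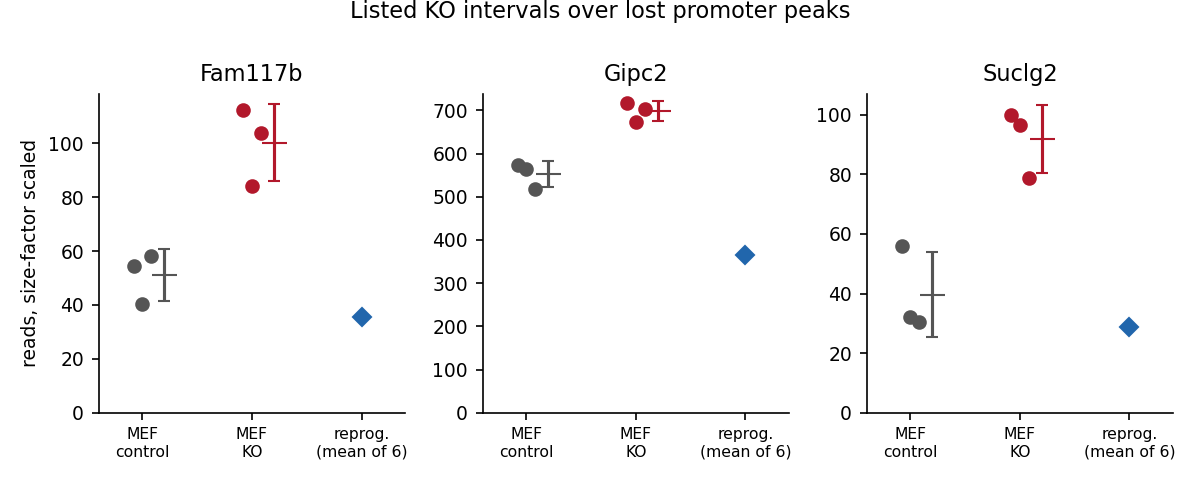
Reads divided by the library size factor at the 3 listed intervals over lost promoter peaks, for each control and KO MEF library (circles) with mean and SD (n = 3), and the mean of the 6 reprogramming libraries (diamond). KO libraries lie above control libraries in each panel, and the reprogramming mean is 66.0 to 72.4% of the control MEF mean and 31.2 to 52.2% of the KO MEF mean.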

How the data were processed

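Each sample was assigned to a group by its title, which also gave its replicate number. Per the study's methods, the authors mapped reads to GRCm38 using BWA and discarded duplicates, mitochondrial and blacklisted reads and improper pairs. Those methods describe MACS2 peak calling for each sample. The deposited lists used here differ from that: they hold broad peaks, 1 list per group, which their names mark as called on merged replicates. In the deposited peak lists every peak has a fold enrichment (a ratio over background) and a -log10 q-value, which were used, and a -log10 p-value, which was not. The authors also counted reads over the union of peaks, and the deposited tables hold raw counts and a signal, the count divided by a DESeq2 size factor, only for intervals that passed their threshold between KO and control. The size factor of a library was taken as the median ratio of its raw count to its scaled count. The fold changes and p-values of the authors in those tables were not used.

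Overlaps, start sites (101652 transcripts of 21951 protein-coding genes, GENCODE M21) and strings were computed in Python 3.11.15 with pandas 2.3.3, numpy 2.4.6 and pysam 0.24.0, and the overlap code was tested on simulated data. Of 661623 peaks, 0 ran past a chromosome end of the reference. A gene had a promoter peak where the midpoint of a peak was within 1000 bp of any of its start sites. A peak was described by its nearest start site. Where several KO MEF peaks overlapped, the strongest was taken. Coordinates are counted from 1. A few genes and 1 sequence are not reported here. Peaks on chromosome 18 were not considered for the printed sequences. The mean of the reprogramming libraries at a listed MEF interval was worked out from the tabled mean over 12 libraries, which equalled the mean of the single libraries at the 70 intervals listed in both tables. Shares have 95% Wilson intervals (statsmodels 0.14.6), and no test was made.

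The peaks, gene lists and strings were chosen with earlier results of these data known. Named were the 25 lost peaks of highest fold enrichment, up to 8 genes for each of the lists of fibroblast factors, AP-1, TGF-beta and BMP, growth factors and cytokines, every lost peak in a listed interval and the 3 just inside the q minimum. Other genes, given as examples of their list, were chosen after their values were seen. Alternatives changed the q minimum, the overlap, the window, the start sites, the KO requirement, the peak type and the sequence window.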

Additional observations from a re-analysis of the deposited data

How the results depend on the processing

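The count of 1434 lost promoter peaks (1351 genes) depended on how loss and promoter were defined. It was 912 (884 genes) at a -log10 q minimum of 10, 2423 (2206 genes) when overlap had to cover 50% of the MEF control peak, and 2340 (2144 genes) when only reprogramming peaks with a -log10 q of 5 or more counted as present. It was 904 (876 genes) with the midpoint within 500 bp, 2613 (2308 genes) within 2 kb, 795 (778 genes) with protein_coding transcripts alone and 397 (404 genes) with gene records alone. A q minimum of 3, reprogramming peaks widened by 500 bp, no required KO MEF peak and gapped peaks gave 1364 to 1752 peaks and 1290 to 1627 genes. The share of 8.18% was 9.59% and 5.63% at a q minimum of 3 and 10, 13.9% with the 50% overlap, 7.78% with widened peaks and 13.3% with strong reprogramming peaks only. In settings of the share added after the data were seen, it was 6.14% within 500 bp, 12.498% within 2 kb, 5.19% with protein_coding transcripts, 3.19% with gene records, 9.17% with gapped peaks and 8.3% with no required KO peak. Genes with no promoter peak left numbered 384 (28.4%), 379 (48.7% of 778) with protein_coding transcripts alone, and 339 when any peak reaching the window counted, a setting added after the data were seen. Around the start site the median CpG ratio was 0.244 and the AP-1 share 13.3% (4.96% in kept promoters), and in the central 400 bp they were 0.210 and 27.5% (5.79%), beside 0.214 and 39.3% (23%) over whole peaks.

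Leaving out a replicate was not possible, because each group has 1 peak list made from merged replicates, and for the same reason no paired analysis was possible. A lost peak says that no peak was called, not that no reads were present, and weak MEF peaks can fall under the calling threshold of another group.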
